A study of Mus musculus with 4 samples.

Results

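The WT1 peak list of replicate 2 held 4292 peaks that lay at the ends of protein-coding genes on chromosomes 1 to 19 and that overlapped no peak of replicate 1. They were chosen by measured values: a peak of the replicate 2 list that shared not even 1 base with a replicate 1 peak, with its midpoint within 1 kb of either end of a RefSeq gene (GRCm38/mm10). They made up 4292 of the 57641 peaks of replicate 2, and of 110773 peaks in both lists. The deposited table of regions overlapping between the lists held none of them (0 regions). The rule, which demands no overlap, largely fixed that count in advance. The comparison set throughout was the 2539 replicate 2 peaks that lay at gene ends in the same way and did overlap replicate 1, called shared below. Both lists came from chromatin immunoprecipitation and sequencing of microdissected kidneys of wildtype mouse embryos at E18.5, of a mixed genetic background described as C57Bl6 crossed with B6DBA/F1, with the WT1 antibody C-19. There were 2 WT1 samples and 2 IgG samples; the IgG samples have no peak list here and were not analysed here. The kidneys were whole, so the cell types that carry a peak cannot be told apart, and the lists hold no expression values against which the tissue label could be checked. The labels do not say whether the samples came from separate litters or pools.

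WT1 is a zinc-finger transcription factor that binds GC-rich DNA. In the kidney it is needed for the nephron progenitors of the cap mesenchyme and, later, for the podocytes, the filtering cells of the glomerulus. A part of its binding lies close to gene starts, where promoters are often rich in CpG dinucleotides. Before sequencing, the recovered DNA was cut with either AluI and MseI or HaeIII and MseI, per the labels' protocols, and amplified over 18 rounds of PCR. AluI cuts within AGCT, HaeIII within GGCC and MseI within TTAA, so sequenced fragments can end at sites of these enzymes.

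A set of sequences is shown first because the results turn on what lies under these peaks. Among members, 30 peaks contained the whole stretch of 250 bases upstream of the nearest gene start, as did 99 shared peaks. In 14 of the 30 and in 50 of the 99, at most 30 of those bases lay within any gene. The 4 such members with the smallest significance values and the 2 such shared peaks with the smallest are printed 5′ to 3′ on the gene's strand, from RefSeq promoter sequences (GRCm38.p6). Capitals mark matches, on either strand and overlapping where they do, to the WT1-type motifs GNGTGGGNG and GNGGGGGNG.

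Members:

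Dkk1, chr19:30549497-30549746, minus strand: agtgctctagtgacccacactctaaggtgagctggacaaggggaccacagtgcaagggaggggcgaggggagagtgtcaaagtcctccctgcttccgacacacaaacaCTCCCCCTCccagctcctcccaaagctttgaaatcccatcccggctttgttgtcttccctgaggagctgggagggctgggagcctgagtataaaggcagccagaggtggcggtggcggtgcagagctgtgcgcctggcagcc

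Vasp, chr7:19271855-19272104, minus strand: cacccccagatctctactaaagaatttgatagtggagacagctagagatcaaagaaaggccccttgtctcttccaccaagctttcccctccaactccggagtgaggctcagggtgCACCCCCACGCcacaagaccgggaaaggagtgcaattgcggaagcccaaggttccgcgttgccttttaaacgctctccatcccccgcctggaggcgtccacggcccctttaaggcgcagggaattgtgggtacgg

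Atoh1, chr6:64728875-64729124, plus strand: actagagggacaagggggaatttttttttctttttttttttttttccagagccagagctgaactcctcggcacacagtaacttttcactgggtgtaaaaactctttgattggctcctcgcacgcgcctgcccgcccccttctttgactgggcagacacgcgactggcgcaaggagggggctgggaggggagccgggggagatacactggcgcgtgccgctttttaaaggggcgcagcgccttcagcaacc

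Mblac2, chr13:81711167-81711416, plus strand: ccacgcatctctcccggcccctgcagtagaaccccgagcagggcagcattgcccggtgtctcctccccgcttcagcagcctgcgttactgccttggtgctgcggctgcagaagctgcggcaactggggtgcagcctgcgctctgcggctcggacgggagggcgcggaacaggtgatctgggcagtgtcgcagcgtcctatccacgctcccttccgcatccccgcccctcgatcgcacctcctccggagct

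Shared peaks:

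Pik3r3, chr4:116221166-116221415, plus strand: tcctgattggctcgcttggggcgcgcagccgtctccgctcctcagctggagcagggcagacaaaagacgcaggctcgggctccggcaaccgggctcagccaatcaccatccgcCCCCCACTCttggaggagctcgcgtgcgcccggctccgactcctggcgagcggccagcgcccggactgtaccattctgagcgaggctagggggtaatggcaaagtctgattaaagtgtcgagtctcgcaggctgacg

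Acp6, chr3:97158527-97158776, plus strand: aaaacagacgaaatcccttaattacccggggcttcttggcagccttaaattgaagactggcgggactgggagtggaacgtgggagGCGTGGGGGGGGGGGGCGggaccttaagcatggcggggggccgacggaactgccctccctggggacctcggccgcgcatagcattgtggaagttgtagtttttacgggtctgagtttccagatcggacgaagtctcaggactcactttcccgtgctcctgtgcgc

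Dkk1 encodes a secreted antagonist of Wnt signalling, Vasp a regulator of actin filament growth, and Atoh1 a basic helix-loop-helix factor of sensory and neural cells. Pik3r3 encodes a regulatory subunit of phosphoinositide 3-kinase, and Acp6 a phosphatase of lysophosphatidic acid. The Dkk1 window held 1 motif match and the Vasp window 2, while the Atoh1 and Mblac2 windows held 0. The Pik3r3 window held 1 match and the Acp6 window 7, all within its single run of capitals. The 4 members had significance values of 3.88e-07, 1.02e-06, 5.01e-06 and 1.68e-04, against 4.26e-75 and 1.25e-61 for the shared peaks.

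A further set shows whole members whose edges both fell exactly at an AluI or MseI cut, upstream of the start and outside genes. There were 5 of these, and the 4 with the smallest values are printed with 4 flanking bases on each side. They were chosen after their edges were seen. Capitals mark every AGCT and TTAA.

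Galntl5, chr5:25181260-25181338, plus strand: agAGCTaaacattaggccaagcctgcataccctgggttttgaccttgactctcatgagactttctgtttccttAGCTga

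Dolpp1, chr2:30392065-30392253, plus strand: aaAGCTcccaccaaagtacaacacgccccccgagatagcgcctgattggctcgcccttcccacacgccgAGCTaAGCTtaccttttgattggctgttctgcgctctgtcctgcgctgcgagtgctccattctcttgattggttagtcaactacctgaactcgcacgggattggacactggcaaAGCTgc

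Borcs6, chr11:69059580-69059738, plus strand: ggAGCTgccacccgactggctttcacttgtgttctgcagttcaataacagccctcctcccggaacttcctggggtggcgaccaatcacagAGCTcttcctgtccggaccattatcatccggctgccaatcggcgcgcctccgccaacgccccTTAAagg

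Slc35e3, chr10:117746476-117746606, minus strand: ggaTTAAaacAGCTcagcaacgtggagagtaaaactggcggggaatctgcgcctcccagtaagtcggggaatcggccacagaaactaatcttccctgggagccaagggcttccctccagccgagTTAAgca

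The Galntl5 and Dolpp1 peaks ran from AGCT to AGCT, the Borcs6 peak from AGCT to TTAA and the Slc35e3 peak from TTAA to TTAA. The Dolpp1, Borcs6 and Slc35e3 peaks also held AGCT sites between their edges.

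Each peak carries the authors' significance value, a p-value or q-value from 0 to 0.0499 that is smaller for a stronger peak; the sources used here do not say which. Its median was 0.0143 over the 4292 members (95% interval 0.0138 to 0.0156) and 4.45e-05 over the 2539 shared peaks (2.50e-05 to 8.01e-05). Intervals here are order-statistic intervals for medians and exact Clopper-Pearson intervals for shares, and cover counting error within 1 library only. The lists carry no read counts, and the depth is therefore unknown. With 1 list on each side, and peaks of a single library not being replicates of a condition, no test was made between sets. Overlap with the other list is a feature of the rule and moves with strength, so these values describe the members and support nothing further.

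Values of 1e-06 or lower were carried by 71 members (1.65%, 1.29 to 2.08) and by 994 shared peaks (39.1%, 37.2 to 41.1). Values of 0.01 or lower were carried by 1745 members (40.7%) and 2117 shared peaks (83.4%). The members were nonetheless not all marginal: 267 of them (6.22%) lay at 1e-04 or below. Among the 1326 gene-end peaks found only in replicate 1, chosen by the same rule with the replicates exchanged, 5 (0.377%) reached 1e-04 and 0 reached 1e-06, which allows a share of up to 0.278%. Their median value was 0.0267 (0.0261 to 0.0314).

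Members were narrower than shared peaks. Their median width was 142 bp (138 to 145) against 219 bp (212 to 227), the middle of the distribution ran from 113 to 196 bp against 154 to 317 bp (quartiles), and the widest spanned 1033 and 1326 bp. Wider peaks overlap others more easily, so width is tied to the rule. Within deciles of the significance value over the replicate 2 list, the ratio of shared to member median width was between 0.995 and 1.17, with shared peaks wider in 9 of 10 deciles.

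**Figure D1:**
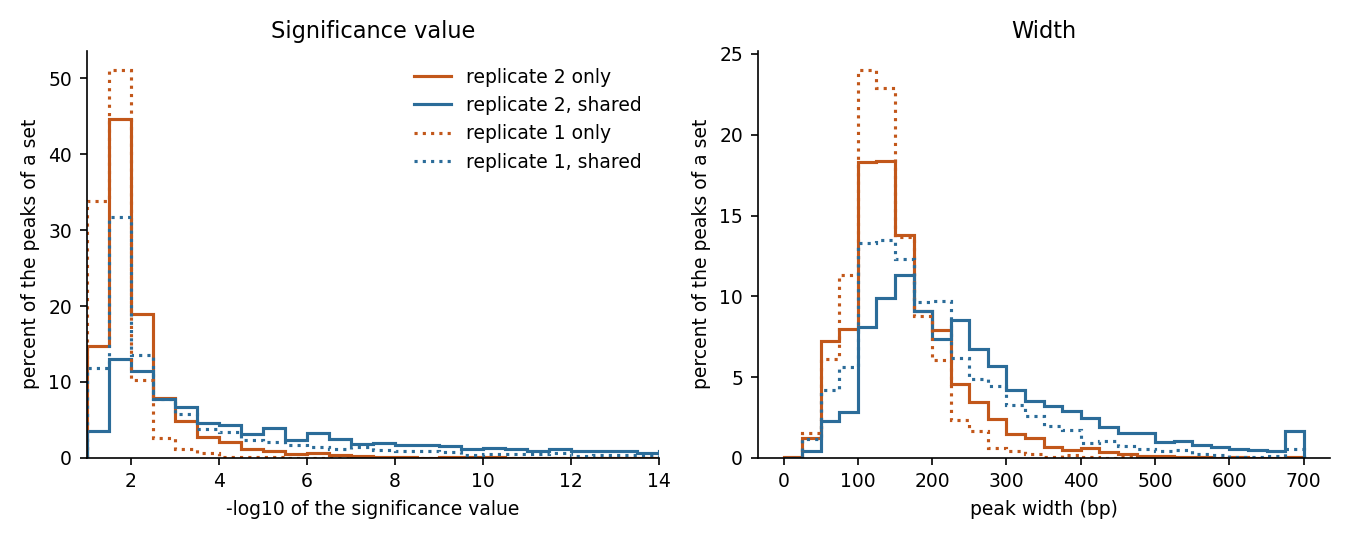
Percent of the peaks of each set by -log10 of the significance value (left, larger means stronger, values beyond the axis not shown) and by width in bp (right, the last step also holds all wider peaks). Solid lines are replicate 2 and dotted lines replicate 1; orange lines are gene-end peaks found in that replicate only and blue lines shared gene-end peaks. The orange lines lie to the left in both panels, with the long tail of strong and wide peaks held by the shared sets.

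Of the 6831 gene-end peaks of replicate 2, 62.8% (61.7 to 64.0) were unshared, against 33.4% (32.0 to 34.9) of the 3966 gene-end peaks of replicate 1. By chromosome the replicate 2 share ran from 57.0% on chromosome 14 to 66.7% on chromosome 4, so no single chromosome carried the set. Gene ends took 10.9% of the 39336 unshared replicate 2 peaks and 14.5% of the 17490 shared ones.

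The shares are given next by decile of strength, as a description, since the rule used both overlap and position. In the strongest decile of the replicate 2 list, 8.41% of gene-end peaks (6.90 to 10.1) and 7.05% of peaks away from gene ends (6.32 to 7.84) were unshared. In the second decile the shares were 47.5% (44.3 to 50.6) and 42.3% (40.8 to 43.7), and in the last 87.4% and 86.5%. Read the other way, gene ends took 24.0% (20.0 to 28.4) of the unshared and 20.7% (19.6 to 21.8) of the shared peaks of the strongest decile, and 8.48% and 7.85% of those of the weakest. In the second and ninth deciles the unshared share was the higher, 19.2% against 16.1% and 9.67% against 6.76%, and in the others the intervals overlapped.

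Replicate 1 did not show this pattern. Gene ends took between 3.45% and 4.85% of its unshared peaks in each of the 10 deciles, against 10.6% to 17.5% of its shared peaks. In its strongest decile 2.24% (1.35 to 3.48) of gene-end peaks were unshared, against 10.5% (9.62 to 11.5) of peaks away from gene ends, and in its weakest 56.8% (51.3 to 62.1) against 78.8% (77.6 to 79.9). The difference between the replicates was not tested, and replicate, library and peak list are the same unit and cannot be told apart.

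**Figure D2:**
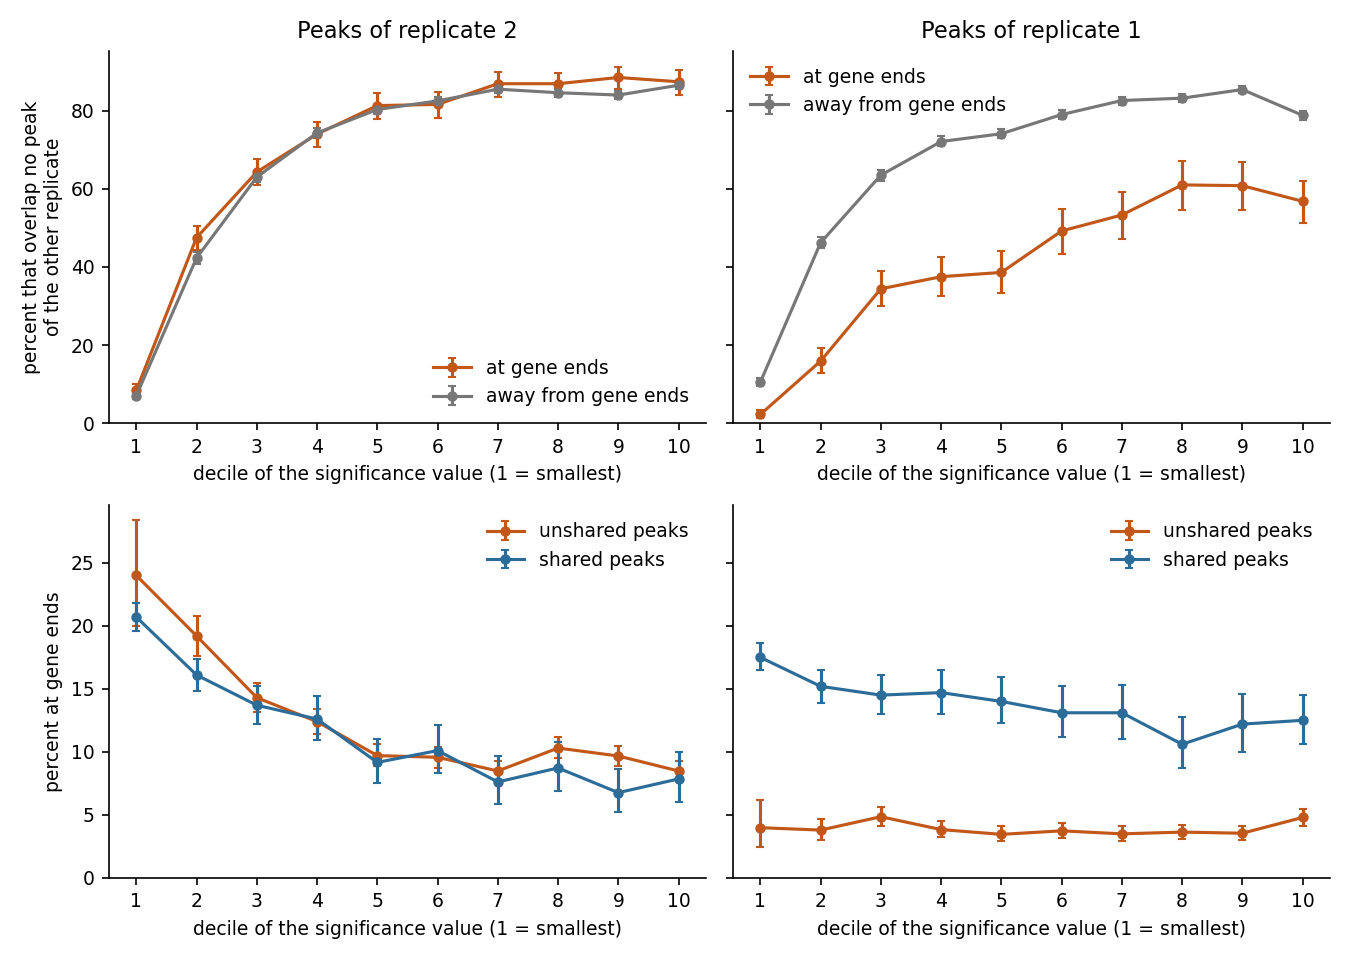
Top: percent of peaks that overlap no peak of the other replicate, at gene ends (orange) and elsewhere (grey), by decile of the significance value (1 is strongest), for replicate 2 (left) and replicate 1 (right). Bottom: percent of unshared (orange) and shared (blue) peaks that lie at gene ends; bars are 95% exact intervals. The curves nearly coincide in replicate 2 and stay apart in every decile of replicate 1.

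The members clustered at gene starts. The strand of the nearest gene was known for 3353 members (78.1%), and in 2763 of these (82.4%, 81.1 to 83.7) the nearest end was the 5′ end. The share was 88.7% (87.3 to 90.1) for shared gene-end peaks, 52.9% (52.3 to 53.5) for unshared replicate 2 peaks away from gene ends, and 65.4% (62.5 to 68.3) for the gene-end peaks found only in replicate 1. Shared gene-end peaks of replicate 1 reached 89.2% (87.7 to 90.5). The 5′ share of members fell short of that of shared peaks in 9 of 10 deciles of strength and exceeded it in the third decile, 88.1% against 87.3%. It was 88.2% in the strongest decile and 73.7% in the weakest.

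Of replicate 2 peaks at 5′ ends, 60.6% (59.2 to 62.1) were unshared, and of those at 3′ ends 72.1% (68.9 to 75.2). The corresponding shares of replicate 1 were 27.1% (25.4 to 28.8) and 61.7% (57.7 to 65.6), so that the replicates lay further apart at gene starts than at 3′ ends. Around the start, members sat a little more loosely: 35.3% (33.5 to 37.1) of members at 5′ ends had their midpoint within 250 bp of the start, against 44.0% (41.7 to 46.3) of shared peaks. Nearly equal shares lay upstream, 48.0% and 50.8%. At 3′ ends the 590 members had a median value of 0.0181 (0.0156 to 0.0197) and at 5′ ends one of 0.0132 (0.0119 to 0.0143).

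**Figure D3:**
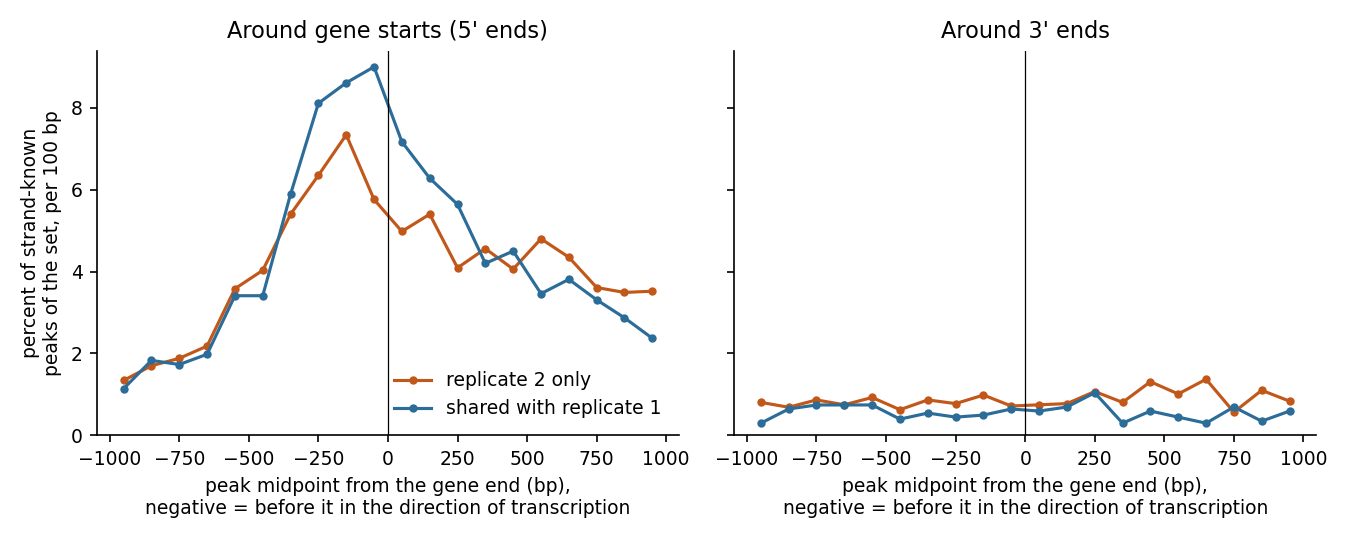
Percent of the strand-known peaks of each set per 100 bp of distance from the gene's 5′ end (left) and 3′ end (right), for members (orange) and shared gene-end peaks (blue). Both sets peak just upstream of the start, the shared set more sharply, and both are low and flat around 3′ ends.

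The absence of overlap did not always mean an empty region in replicate 1. A replicate 1 peak lay within 200 bp of 541 members (12.6%, 11.6 to 13.6) and within 500 bp of 877 (20.4%, 19.2 to 21.7), with a median value of 0.00824 for those nearest peaks. Unshared replicate 2 peaks away from gene ends had such a neighbour within 500 bp in 10.7% of cases (10.4 to 11.0). Gene-end peaks found only in replicate 1 had a replicate 2 peak within 500 bp in 16.7% of cases (14.8 to 18.9). In the same order, the median gap to the nearest peak of the other replicate was 10.6 kb and 7.85 kb. For members it was 7.58 kb, close to that of the gene-end peaks found only in replicate 1. At the limits of the rule, 11 members lay within 10 bp of a replicate 1 peak (median value 0.00867) and 3 shared peaks overlapped by 10 bp or less (0.0135). The 287 members at 900 to 1000 bp from an end had a median value of 0.0181, and the 234 unshared peaks just outside, at 1000 to 1100 bp, one of 0.0197.

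Counted by nearest gene, 2842 genes (81.2%) had 1 member, 543 had 2, 104 had 3 and 13 had 4. The last group included Bhlhe40, a circadian and stress-response repressor, Gadd45g, a growth-arrest gene, Hnrnpl, a splicing regulator, and Rab35, a GTPase of endosome recycling. Members near the ends of 2 or more genes numbered 465 (10.8%, 9.92 to 11.8), close to the 302 (11.9%, 10.7 to 13.2) among shared peaks. A peak near several genes counts for each of them in what follows.

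The 10 members with the smallest values lay at Mllt6, Frzb, Dicer1, Galnt12, Prkg2, Cltc, Uck2, Sft2d1, Meis2 and Lor. The peak at Mllt6, a chromatin-associated partner of the DOT1L complex, was the strongest (chr11:97662640-97663045, 406 bp wide, value 6.37e-15), with its midpoint 279.5 bp from the 5′ end and the nearest replicate 1 peak 903 bp away. The peak at Frzb, a secreted Wnt antagonist, spanned the start itself (chr2:80447161-80447613, value 4.03e-11, midpoint 9 bp from the 5′ end, replicate 1 gap 1.29 kb). The peak at Dicer1, the nuclease that matures microRNAs, had a value of 8.30e-11 and lay 366 bp from its 5′ end (chr12:104752112-104752556). These 3 genes had no shared peak at either end.

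The neighbourhood of these strong members differed. Cltc, the clathrin heavy chain, carried its member (2.96e-10) beside 2 shared peaks with values of 8.39e-28 and 3.30e-07 in replicate 2, and the gap to replicate 1 was 151 bp. Galnt12, an enzyme that starts O-linked glycosylation, had a member of 1.25e-10 and, 635 bp away, a peak found only in replicate 1 (0.0178). Uck2, a uridine-cytidine kinase, had 2 members (6.96e-10 and 0.0469). Meis2, a homeobox factor of the renal stroma, had 3: at 1.74e-09 and 0.0297 by its 3′ end and at 0.00681 by its 5′ end. Lor, the cornified-envelope protein loricrin, had 2 by its 3′ end (3.82e-09 and 0.00886).

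Members lay within 1 kb of an end of 3850 of the 20665 protein-coding genes, a background of 18.6% (18.1 to 19.2). Shared peaks did so at 2314 genes (11.2%) and peaks found only in replicate 1 at 1376 (6.66%). Of the 3850 genes, 872 (22.6%, 21.3 to 24.0) also had a shared peak and 1120 (29.1%) a replicate 1 gene-end peak of any kind. Among the 5292 genes with any replicate 2 gene-end peak, 2978 (56.3%, 54.9 to 57.6) had members only.

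Gene lists were grouped in 4 classes. Of 652 housekeeping genes, 120 had a member (18.4%, 15.5 to 21.6), close to the background share. Of 231 kidney genes, 71 had one (30.7%, 24.9 to 37.1), and of 486 developmental genes 147 (30.2%, 26.2 to 34.5). Of 2215 genes of other tissues or silent families, 117 had one (5.28%, 4.39 to 6.30). Being near a member does not mean regulation by WT1, which the lists do not measure.

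Shared peaks ordered the classes in the same way. They lay at 9.05% (6.96 to 11.5) of housekeeping, 25.1% (19.7 to 31.2) of kidney, 20.8% (17.3 to 24.7) of developmental and 2.30% (1.72 to 3.02) of the remaining genes. Among genes with any replicate 2 gene-end peak, members stood alone at 62.7% (54.6 to 70.2) of the housekeeping genes, 43.7% (33.9 to 53.8) of the kidney genes, 50% (42.9 to 57.1) of the developmental genes and 66.2% (58.1 to 73.7) of the others. The housekeeping and kidney intervals did not overlap. Over all genes the members-only share was 56.3% (54.9 to 57.6). The housekeeping and developmental intervals contained that value, the kidney interval lay below it and that of the others above it. Within the kidney class the members-only share was lowest for the podocyte list, 23.3% (7 of 30, 9.93 to 42.3). It was highest for the loop of Henle and distal tubule list, 62.5% (5 of 8, 24.5 to 91.5). These intervals overlapped, and the latter contained the share over all genes. Peaks found only in replicate 1 lay at 8.74% of housekeeping, 8.23% of kidney, 7.20% of developmental and 3.34% of other genes, against their background of 6.66%, a narrower spread than that of the members. In all 69 genes stood in more than 1 class.

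Housekeeping lists lay close to the background, between 13.2% for proteasome subunits (5 of 38) and 27.0% for aminoacyl-tRNA synthetases (10 of 37, 13.8 to 44.1). The proteasome list had members at 5 genes and shared peaks at 0 of 38, which allows a share of up to 9.25%. Among its members were those at Psmb10, the inducible catalytic subunit (0.00650), Psmd7 (0.00479) and Psmd13 (0.0192), regulatory-particle subunits. Cytosolic ribosomal proteins had members at 12 of 80 genes and shared peaks at 11 of 80, with median lowest values of 0.0112 and 4.95e-08. Rps18, of the small subunit, had a member near each end (0.00122 and 0.00639), and the nearest replicate 1 peak was 27.0 kb from the first.

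Oxidative phosphorylation genes had members at 13 of 77 and shared peaks at 5, and mitochondrial ribosomal proteins at 13 of 78 and 4. Mcm7, a subunit of the replicative helicase, had 3 members around its start (2.34e-04, 0.0156 and 0.0226) and no shared peak. H3f3a, a histone H3.3 gene, also had 3 (0.00154, 0.0226 and 0.0391). Polr3g, a subunit of RNA polymerase III whose start faces that of Mblac2, had 3 as well (2.64e-05, 1.68e-04 and 0.0156). Aars2, the mitochondrial alanyl-tRNA synthetase, had 1 of 1.26e-04, and Dars, the aspartyl-tRNA synthetase, had 2 (0.00122 and 0.0391). Of the standard reference genes, Gapdh, Actb and Ppia had no member, while the ubiquitin gene Ubb had 2 (0.00107 and 0.0119).

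Kidney lists ranged from 9.38% for the proximal tubule (3 of 32) to 45.7% for nephron progenitors (16 of 35, 28.8 to 63.4). Shared peaks lay at 13 of the 35 nephron progenitor genes (37.1%, 21.5 to 55.1), also above their share of 11.2% over all genes. Of the progenitor genes, Six2, the homeobox factor that keeps nephron progenitors undifferentiated, had 2 members beyond its 5′ end (chr17:85688675-85689033, value 1.61e-05, and chr17:85688442-85688558, value 0.0197). Six2 had no shared gene-end peak, and the nearest replicate 1 peak lay 31.3 kb from the stronger member. Fgf9, a growth factor that maintains the progenitors, had a member of 5.53e-05 at its 3′ end, 45 bp from it. Mycn, a proliferation factor of the progenitors, had 2 (0.00479 and 0.0172) beside a shared peak.

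The podocyte list ran the other way. Members lay at 17 of 59 podocyte genes (28.8%, 17.8 to 42.1) and shared peaks at 23 (39.0%, 26.5 to 52.6), and only 7 of the 30 podocyte genes with any replicate 2 gene-end peak (23.3%, 9.93 to 42.3) had members alone. The median lowest value of the shared peaks on this list was 8.45e-15, that of its members 0.0156. Actn4, an actin crosslinker of the foot processes, had a member of 8.11e-06 and no shared peak. Nes, the intermediate-filament protein nestin, had a member of 0.00209 amid 4 shared peaks whose strongest was 4.07e-51. Lamb2, a laminin chain of the glomerular basement membrane, had 2 members (0.00127 and 0.00772) beside 1 shared peak of 0.0112.

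Of the podocyte and WT1-related genes looked up by name, Nphs1, the slit-diaphragm protein nephrin, had 1 member (0.0236, 761 bp from its 5′ end). Wt1 itself had 1 weak member (chr2:105125508-105125953, 0.0387) 246 bp from a replicate 1 peak, next to a shared peak of 1.39e-35. Pax2, Pax8, Podxl and Synpo had 0 members. Pax8, a paired-box factor of the early nephron, had a shared peak instead (1.03e-11 in replicate 2).

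Ureteric bud and collecting duct genes had members at 13 of 32 (40.6%, 23.7 to 59.4) and shared peaks at 6. Dusp6, a phosphatase that restrains ERK signalling, had 2 members (7.52e-05 and 0.0140), each within 100 bp of a replicate 1 peak. Renal vesicle genes had members at 10 of 30 and shared peaks at 8. Lhx1, a LIM homeobox factor of the early nephron, had 2 members (0.00254 and 0.0112) and no shared peak. Heyl, a Notch effector, had 2 (9.36e-07 and 0.0197) amid 4 shared peaks. Stromal genes had members at 9 of 31, with Lamc3, a laminin chain, at 2.34e-04. Tubule genes with members included Cldn19, a tight-junction protein of the thick ascending limb (0.00596 and 0.0454), and Slc22a6, the organic anion transporter of the proximal tubule (0.0197).

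Of the developmental lists, Hox genes had the highest share, 19 of 39 (48.7%, 32.4 to 65.2), with shared peaks at 14. Hox genes stand in clusters and share peaks, so their counts are not independent. Hoxa10 had a member at each end (6.02e-05 at the 3′ end and 0.0143 at the 5′ end). Members lay at 9 of 21 Hedgehog, 17 of 43 Notch, 15 of 43 FGF, 20 of 67 Wnt and 19 of 66 BMP and TGF-beta pathway genes, and the shared counts were 6, 10, 8, 10 and 17. In each of these pathways members touched more genes than shared peaks did, as they did over all genes. For the classes this order depended on the setting. With peaks of 0.01 or lower only, members lay at 14.2% of developmental genes and shared peaks at 19.1%, and in the kidney class at 13.0% and 22.5%. When a replicate 1 peak within 500 bp counted as sharing, the kidney values were 23.4% and 26.8% and the developmental values 23.5% and 23.0%.

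Among receptors and ligands, Cdon, a Hedgehog co-receptor, had a member of 1.53e-04, and Gdf6, a BMP-family ligand, one of 2.66e-06. Wnt1, a ligand of the canonical pathway, had a member of 1.68e-05. Among intracellular components and targets, Aph1c, a gamma-secretase subunit that serves Notch cleavage, had one of 2.88e-06. Spred2, an inhibitor of Ras and ERK signalling, had a member of 3.48e-08 (chr11:19924026-19924390), and Id2, an inhibitor of helix-loop-helix factors and a BMP target, one of 1.87e-04. Spred2, Gdf6, Aph1c and Id2 had no shared gene-end peak.

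Transcription-factor families differed in how members and shared peaks were divided. Forkhead genes had members at 13 of 41 (31.7%, 18.1 to 48.1) and shared peaks at 4 (9.76%, 2.72 to 23.1); the members were weak, with a median lowest value of 0.0364. Sox genes had members at 3 of 18 and shared peaks at 8 (44.4%, 21.5 to 69.2), and none of the 8 Sox genes with a replicate 2 gene-end peak had members alone (0 of 8, which allows up to 36.9%). The 3 were Sox13 (0.00356), Sox21 (0.0271) and Sox12 (0.0391).

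Among lists of other tissues, olfactory receptors had members at 9 of 1104 genes (0.815%, 0.373 to 1.54). Neuronal and synaptic genes had members at 7 of 29 (24.1%, 10.3 to 43.5) and shared peaks at 0 of 29, which allows a share of up to 11.9%. Gad1, the enzyme that makes GABA, had 3 members around its start (1.68e-04, 0.0222 and 0.0380). Liver and immune lists likewise had members (3 of 30 and 4 of 29) and 0 shared peaks, which allows shares of up to 11.6% and 11.9%. Over all genes the shares were 18.6% for members and 11.2% for shared peaks. The intervals of the neuronal, liver and immune lists contained both, so these short lists were not set apart from the background. The zinc-finger genes named Zfp, many of which carry a KRAB domain, had members at 70 of 386 (18.1%, 14.4 to 22.3) and shared peaks at 37, close to both backgrounds.

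**Figure D4:**
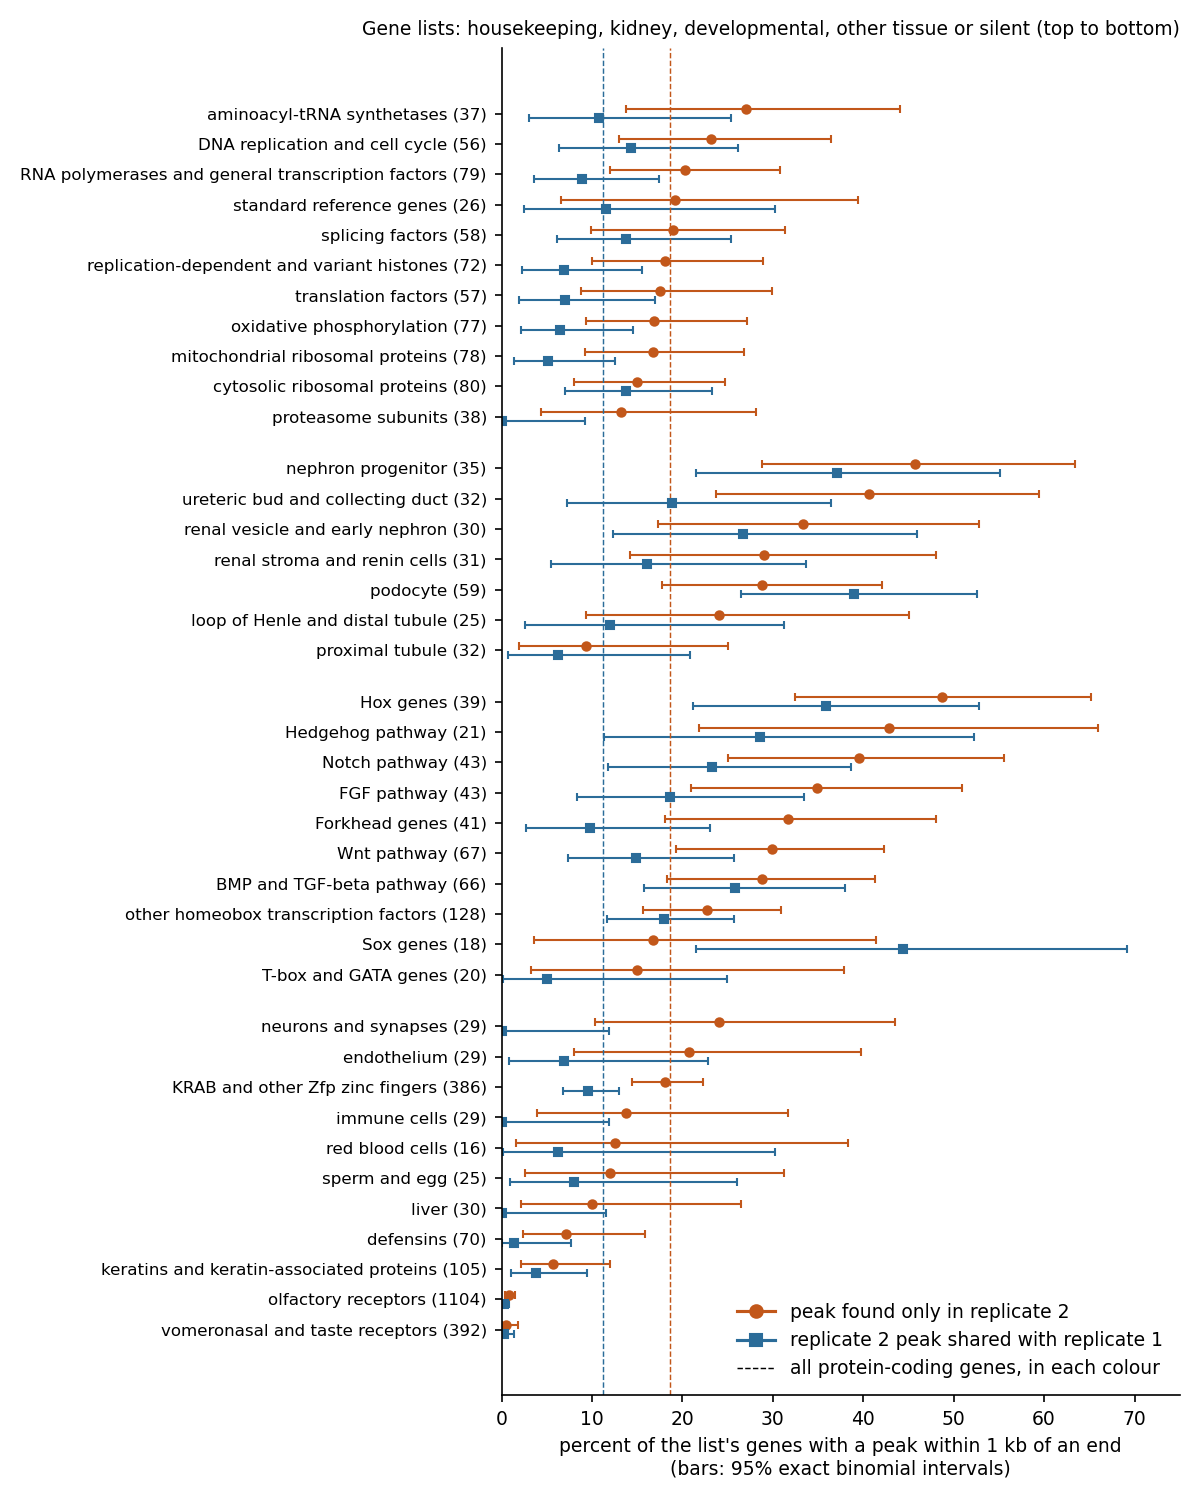
Percent of the genes on each list (number of genes in brackets) with a member (orange circles) or a shared replicate 2 peak (blue squares) within 1 kb of an end, with 95% exact intervals; dashed lines are the shares over all protein-coding genes. Housekeeping lists straddle the orange line, nephron progenitor and Hox lists lie to its right, and the podocyte and Sox lists are those where the blue square lies right of the orange circle.

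Promoter windows of 300 bases, from 250 upstream of the start to 50 past it, were at hand for 16457 of the 20665 genes. Those of the 1967 genes with a member but no shared peak at the 5′ end had a median GC content of 62% (61.3 to 62.7), against 62.7% (62 to 63.3) for the 1627 genes with a shared peak and 54.7% (54.7 to 55) for the 12863 with neither. The ratio of observed to expected CpG was 0.747, 0.754 and 0.501. In CpG content the promoters with members were thus close to those with shared peaks. By tertile of this ratio, 5.21%, 19.1% and 21.7% of genes had a member at the 5′ end, and 3.30%, 12.1% and 14.3% a shared peak.

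Promoter composition also differed between the gene classes. Of housekeeping windows 64.0% were in the top CpG tertile, of kidney windows 24.8%, of developmental windows 41.4% and of the rest 5.83%. Within that top tertile a member lay at the 5′ end of 56 of 339 housekeeping genes (16.5%, 12.7 to 20.9), 16 of 40 kidney genes (40%, 24.9 to 56.7), 34 of 139 developmental genes (24.5%, 17.6 to 32.5) and 21 of 108 other genes (19.4%, 12.5 to 28.2), against 21.7% of all genes there. In the middle tertile the shares were 12.4% (7.96 to 18.2) of housekeeping, 25.9% (16.8 to 36.9) of kidney, 26.2% (19.7 to 33.6) of developmental and 10.2% (7.10 to 14.1) of other genes, against 19.1% of all. In both tertiles the housekeeping interval thus lay below the share over all genes. The kidney interval lay above it in the top tertile and contained it in the middle one, and the developmental interval did the reverse. In the lowest tertile 5.21% of all genes had a member at the 5′ end. The shares there were 17.5% (7.34 to 32.8) of kidney and 24.2% (11.1 to 42.3) of developmental genes, with both intervals above 5.21%. Of housekeeping genes, 3 of 14 had one there (21.4%, 4.66 to 50.8), an interval that contained 5.21%. Genes of other tissues or silent families lay below the share over all genes in the middle tertile and in the lowest (1.26%, 0.746 to 1.98). Their interval in the top tertile contained it.

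The WT1-type motifs were less dense under members than under shared peaks. At least 60 bases of a promoter window lay under 776 members and, by coincidence of number, 776 shared peaks. The members' stretches held 2.15 matches per kb (1.88 to 2.45, exact Poisson interval) and those of shared peaks 3.53 (3.22 to 3.87). Stretches under peaks found only in replicate 1 held 1.06 (0.603 to 1.71), and the windows of genes with neither kind of replicate 2 peak 1.64 (1.60 to 1.68). A match was present in 29.5% of all windows, in 41.5% (39.3 to 43.7) of those with a member only and in 54.7% (52.2 to 57.1) of those with a shared peak.

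The motifs are GC-rich, so the density was also taken by GC content. At 50 to 60% GC members had 1.29 matches per kb (0.963 to 1.69), shared peaks 2.60 (2.16 to 3.10) and windows with neither 1.58 (1.51 to 1.65). At 60 to 70% the values were 2.43 (1.96 to 2.97), 4.23 (3.71 to 4.81) and 2.52 (2.41 to 2.62). In these bins the members' interval contained the value for windows without a replicate 2 peak and lay below that of shared peaks. These are Poisson intervals too, and too narrow for clumped matches. At 70% GC or more members had 5.75 (4.51 to 7.23), shared peaks 5.53 (4.48 to 6.75) and windows with neither 3.98 (3.78 to 4.18).

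Density moved with strength as well. Members with values of 0.001 or lower had 2.80 matches per kb (2.20 to 3.52) and weaker members 1.92 (1.63 to 2.26). For shared peaks these were 3.92 (3.55 to 4.32) and 2.01 (1.51 to 2.62). Weak members and weak shared peaks therefore had intervals that largely overlapped. Strong members had a lower value than strong shared peaks, but their intervals nearly met and are too narrow for clumped matches. The strong groups were also not of equal strength. Over all replicate 2 gene-end peaks at 0.001 or lower, 71 of 590 members reached 1e-06, against 994 of 1630 shared peaks. A match is a string of letters and not a bound site, and the part that strength plays in the difference was not tested further.

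A part of the peak edges fell on enzyme cuts. Of 1215 member edges inside promoter windows, 17.3% (15.2 to 19.5) lay exactly at an AluI cut and 5.60% (4.37 to 7.04) at an MseI cut, whereas at positions 5 to 12 bp away the shares were 0.149% and 0.0154%. HaeIII cuts met 0.988% of edges (0.511 to 1.72) and 0.926% of the positions nearby. The Galntl5, Dolpp1, Borcs6 and Slc35e3 peaks printed above are members with such an edge at both sides.

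Shared peaks of replicate 2 had 17.1% (14.8 to 19.7) of their 980 edges at an AluI or MseI cut, against 22.9% (20.5 to 25.3) for members. In replicate 1 the shares were 41.6% (35.2 to 48.2) for unshared and 25% (22.4 to 27.8) for shared gene-end peaks. In all of these sets HaeIII stayed at or below 1.12%, so the cuts met at edges of both lists were mostly those of AluI and MseI. The share of genes with a member at the 5′ end was 14.2% (12.7 to 15.8) with 0 AluI and MseI sites in the window, 16.7% with 1, 17.9% (16.7 to 19.1) with 2, 14.9% with 3 and 12.1% (11.1 to 13.2) with 4 or more. CpG content fell over these groups, from a median ratio of 0.800 to 0.322. Within the top CpG tertile, 18.1% (15.8 to 20.5) of windows without a site and 22.6% (21.3 to 23.8) of those with 1 or more had a member. Shared peaks differed in the same direction there, at 11.5% and 14.9% of these windows. Over all windows the share with a shared peak also rose and fell, from 9.01% with 0 sites to 11.2% with 2 and 9.05% with 4 or more. The relation to these sites was thus not particular to members.

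**Figure D5:**
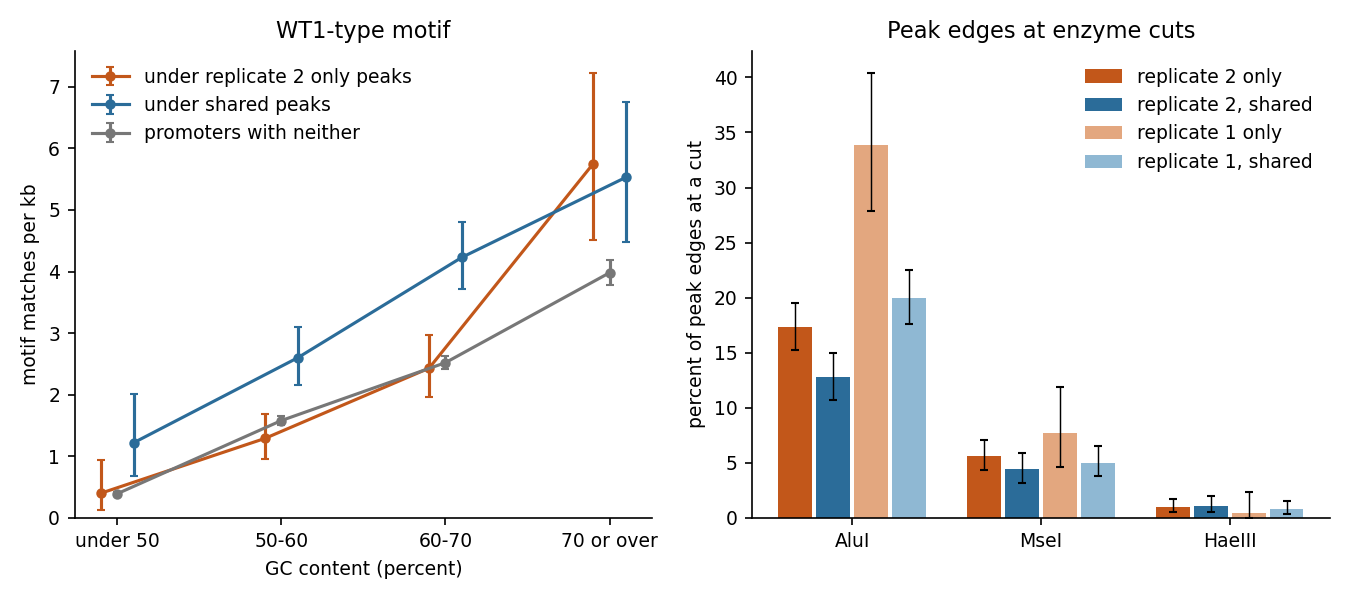
Left: WT1-type motif matches per kb by GC content, under members (orange), under shared peaks (blue) and in promoter windows of genes with neither (grey). Bars are 95% Poisson intervals, too narrow because matches clump. Right: percent of peak edges exactly at an AluI, MseI or HaeIII cut for gene-end peaks of both replicates, with 95% exact intervals. Members follow the grey line up to 70% GC, and in each set AluI is met most and HaeIII least.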

How the data were processed

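The authors' deposited peak lists of 2 WT1 samples give, per peak, coordinates on mm10 (per the submitters' processing notes) and a deposited p-value or q-value below 0.05. The aligner and peak caller, not given in the sources used here, could change which peaks were called. Starts were made 1-based. Gene ends, symbols and promoter sequences came from RefSeq GRCm38.p6, on chromosomes 1 to 19; strand came from the promoter windows. Of 540 symbols typed into gene lists, 521 matched a gene, and the other lists were found by name pattern. The members and lists were chosen with earlier results of these data known. Named are the genes of the 10 members with the smallest values, up to 3 genes per list with the smallest values, and 12 genes named outright; Hprt, on X, was outside the rule. Printed upstream windows were limited to those with at most 30 bases inside a gene, after the data were seen. Bhlhe40 and the other genes with 4 members, and the whole-peak sequences, were also chosen after their values were seen. Calculations used Python 3.11.15, pandas 2.3.3, numpy 2.4.6 and scipy 1.17.1, and were tested on simulated peaks. Sets were described by medians and shares with 95% intervals and no test; sharing, window, strength and placement rules were each varied. Some named genes are not reported here.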

Additional observations from a re-analysis of the deposited data

How the results depend on the processing

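With 6 other settings, members had a lower motif density, more edges at AluI or MseI cuts, a lower 5′ share and a higher median significance value than shared peaks in 6 of 6, and kidney and developmental genes stayed above all genes, with housekeeping genes within 3 percentage points of them, in 6 of 6. The sizes moved. Counting a replicate 1 peak within 500 bp as shared gave 50% of gene-end peaks unshared, a shared to member width ratio of 1.35 in place of 1.54, a 5′ share of 79.9%, and members at 15.2% of housekeeping, 23.4% of kidney, 23.5% of developmental and 15.3% of all genes. A window of 500 bp gave 2587 members, 59.9% unshared, a median value of 0.0119, a 5′ share of 85.7%, and members at 11.0%, 19.9%, 18.5%, 3.39% (other tissue or silent) and 11.9% of these genes. A window of 2 kb gave 64.8% unshared, a 5′ share of 77.2% and 25.6%, 42.4%, 42.2%, 7.99% and 26.0%. Keeping values of 0.01 or lower gave 1745 members, 45.2% unshared, a median of 0.00253, a width ratio of 1.39, a 5′ share of 86.7% and 7.82%, 13.0%, 14.2%, 2.48% and 8.29%. Placing peaks by any base gave 19.4% of all genes. With the replicates exchanged, the median value was 0.0267, the width ratio 1.34 and the 5′ share 65.4%. Within deciles of significance the width ratio was 1.07. An alternative chosen after seeing the data, 5′ ends alone, gave 15.3% of housekeeping, 25.3% of developmental, 3.83% of other and 15.3% of all genes. The cause of these changes was not tested.

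No paired analysis was possible because the rule sets the only WT1 lists against each other and no test was made; leaving out a replicate could not be run for the same reason. The lists give no read counts, so whether a region without a replicate 1 peak lacked signal or fell short of the authors' threshold was not tested. Strand was unknown for the genes without a promoter window, and bases under peaks outside these windows were not read.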
